A study of Homo sapiens with 19 samples.

Results

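The long non-coding genes that carry small nucleolar RNAs (snoRNAs) in their introns were followed through 1 h of arsenite stress in SH-SY5Y cells, a human neuroblastoma line. The set held every gene whose GENCODE name is SNHG followed by a number, together with GAS5, ZFAS1 and EPB41L4A-AS1, and it came to 31 genes with 711 transcripts, out of 60966 genes and 256911 transcripts in the table. Total RNA depleted of ribosomal RNA was sequenced from untreated and AS-treated cells of the same line in the same growth medium, the latter given 500 μM sodium arsenite (AS) for 1 h. There was 1 library per condition, so no difference below has a replicate check, and no p-value is given. Both libraries come from an established tumour line, and no gene had been knocked down or introduced in either.

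A snoRNA host gene is transcribed and spliced like any other gene, but the part that is kept for a known task is often the intron. After splicing, the excised intron is trimmed back to the snoRNA, which joins a protein complex and directs the modification of ribosomal or spliceosomal RNA. The spliced exons are exported, and in several host genes, among them GAS5 and SNHG1, they are read by ribosomes over a short frame and then destroyed by nonsense-mediated decay, a pathway that works only while the RNA is being translated. Several of these genes begin with a run of pyrimidines, the terminal oligopyrimidine tract of ribosomal protein genes, which ties their translation to growth signals. Arsenite is a cell stressor that blocks the initiation of translation and drives untranslated mRNA into stress granules.

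To show which host genes carry such a tract, 30 bases around the RefSeq start site (GRCh38.p14, 10 bases before the start and 20 from it) were read for the abundant genes, and the capitals mark a C at the start with the unbroken run of C or T that follows it. A match needed at least 4 such bases after the C, on the strand of the gene.
SNHG5, chr6:85678714-85678743, minus strand: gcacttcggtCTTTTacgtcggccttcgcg
ZFAS1, chr20:49278632-49278661, plus strand: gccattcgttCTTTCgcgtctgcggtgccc
SNHG12, chr1:28581854-28581883, minus strand: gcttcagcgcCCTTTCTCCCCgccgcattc
SNHG4, chr5:139274091-139274120, plus strand: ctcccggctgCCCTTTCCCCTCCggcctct
SNHG1, chr11:62855866-62855895, minus strand: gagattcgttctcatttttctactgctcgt
SNHG16, chr17:76557754-76557783, plus strand: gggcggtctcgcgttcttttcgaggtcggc
SNHG17, chr20:38435309-38435338, minus strand: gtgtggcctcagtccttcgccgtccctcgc
The last 3 are shown because they are abundant or changed and have no match at that exact base. Of the 27 host genes with an entry in the RefSeq table, 7 had the match at the start, as had 1429 of all 35116 promoters (4.07%). The other 3 genes with a match were SNHG18, SNHG19 and SNHG32, all at low values here. The match says only which letters stand at the annotated base, and a start site placed a few bases away hides it. When the match could begin anywhere in the 30 bases, 16 of the 27 genes had it, against 38.37% of all promoters. GAS5 had none in this window, and its RefSeq start lies upstream of every start in the GENCODE gene model (GRCh38, chromosome 1 from 173858559 to 173868882, minus strand).

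All values below are reads per kilobase of transcript, scaled to the depth of the library (RPKM), which is how the deposited numbers behave. Multiplied by the length of the transcript, they came out as whole multiples of 1 step per library, and that step put the library totals at 13291958 reads in untreated cells and 11281587 in AS-treated cells. A read that several isoforms of a gene could hold was counted for each of them, so a sum over isoforms grows with the number of annotated isoforms. Sums are therefore compared only between conditions, and levels of different genes only by their leading isoform, the one with the largest mean. A gene or transcript was called higher or lower when its AS-treated to untreated ratio was above 2 or below 0.5 and its larger value was above 1. The median ratio of all 88762 transcripts above 1 in both libraries was 1.19 (log2 0.25), and changes of the host genes are read against that value.

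The libraries matched their labels. Of 8 measured genes of the acute stress response, 7 were called higher, from the transcription factor gene EGR1 (0.408 to 134) to the chaperone gene DNAJB1 (197 to 890), and HSPH1, another chaperone gene, reached a ratio of 1.69. Of 11 neuroblastoma markers, 10 were above 1 in at least 1 library, with STMN2, a neuronal tubulin regulator, at 408 and 475, GATA3, a sympathetic lineage factor, at 343 and 301, and CHGA, a secretory granule protein, at the highest ratio of the list (2.38). TH, which encodes the first enzyme of catecholamine synthesis, was at 0.169 and 0.199. Of 6 markers of other cell types, ALB, CDH5 and KRT5 were listed at 0 in both libraries, PTPRC stayed under 1, GFAP had 2.02 and 2.45, and COL1A2 had 2.85 and 1.27.

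Among the 31 host genes, 27 were above 1 in at least 1 library, summed over isoforms, and 22 were above 5. The highest leading isoforms belonged to SNHG29, host of SNORD49A, SNORD49B and SNORD65, with 65.1 in untreated and 78.5 in AS-treated cells. SNHG16, host of the SNORD1 genes, came next with 52.9 and 63.9. GAS5, whose product accumulates in growth-arrested cells, had 27.0 and 43.6. Together these genes head the order of levels in the AS-treated library. The leading isoforms of SNHG29 and SNHG16 each had a ratio of 1.21, close to the median of 1.19 over all transcripts, and that of GAS5 had 1.61. The GAS5 isoform with the highest value in untreated cells, ENST00000412059.5, had 28.9 and 34.3, a ratio of 1.19.

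SNHG5, host of SNORD50B, had 26.4 and 27.5 for its leading isoform. SNHG3, host of SNORA73A and SNORA73B, had 25.1 and 20.5, and SNHG1, host of SNORD22 and SNORD25 to SNORD28, had 25.1 and 37.4. In untreated cells SNHG5, SNHG3 and SNHG1 stood within counting error of each other, whereas in the AS-treated library SNHG1 was above both. ZFAS1, host of 3 SNORD12 genes, had 20.7 and 31.7. The order then ran through SNHG6 (14.4 and 18.6), SNHG8 (13.4 and 15.3), SNHG10 (9.94 and 12.3) and SNHG22 (9.29 and 10.5) down to SNHG21, host of SCARNA15, with 0.887 and 1.79. Neighbours in that lower range rested on few reads, such as 25 and 53 for SNHG17.

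**Figure D1:**
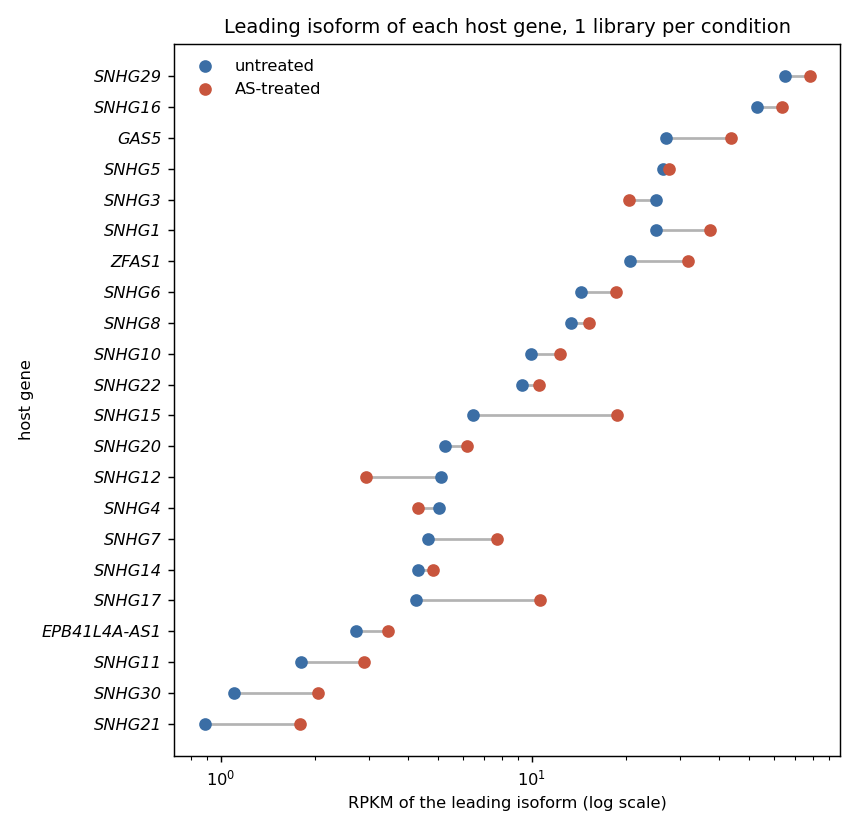
RPKM of the leading isoform of each of the 22 host genes above 5 (summed over isoforms), on a log axis, with untreated cells in blue and AS-treated cells in red, 1 library each. Most genes lie slightly further right after arsenite, SNHG15 and SNHG17 move the furthest, and SNHG3, SNHG4 and SNHG12 move left.

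The 9 genes that did not reach 5 were accounted for as follows. SNHG28 (2.87 and 1.14), SNHG19 (2.20 and 1.81), SNHG31 (1.69 and 0.856), SNHG9 (1.57 and 1.02) and SNHG25 (1.35 and 1.59) were above 1 as sums. SNHG18 was listed at 0.0418 and 0, and SNHG26 at 0 and 0.0509. SNHG27 and SNHG32 were listed at 0 in both libraries. SNHG32 lies in the major histocompatibility region of chromosome 6, where 73.5% of 181 protein-coding genes between positions 28500000 and 33500000 were at 0, against 19.3% of protein-coding genes elsewhere, so its 0 does not speak of its expression. The heat shock genes HSPA1A and HSPA1B lie in the same region and were at 0.0834 and 0.0352 in the AS-treated library.

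As a set, the host genes moved with the rest of the transcriptome. Of the 27 above 1, 3 were called higher (11.1%) and 1 lower (3.70%), where 9.79% of all 16457 genes above 1 were called higher and 3.93% lower. Their median ratio was 1.20, beside 1.21 over all genes, and 14 of the 27 lay above the median of all transcripts. The 235 protein-coding genes above 1 that hold a snoRNA inside them had a median ratio of 1.18 with 7 called higher and 4 lower. The other long non-coding genes, 2484 above 1, had 1.18 as well, with 17.1% called higher and 10.4% lower. Other long non-coding genes with a snoRNA inside, 20 above 1, had a median of 1.29, with 4 called higher (20%) and 1 lower (5%). When the AS-treated values were divided by the median ratio, 1 host gene stayed higher (SNHG15) and 2 were lower (SNHG28 and SNHG31), with 5.78% and 5.53% of all genes called. With 27 genes, these counts lie close to the background.

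**Figure D2:**
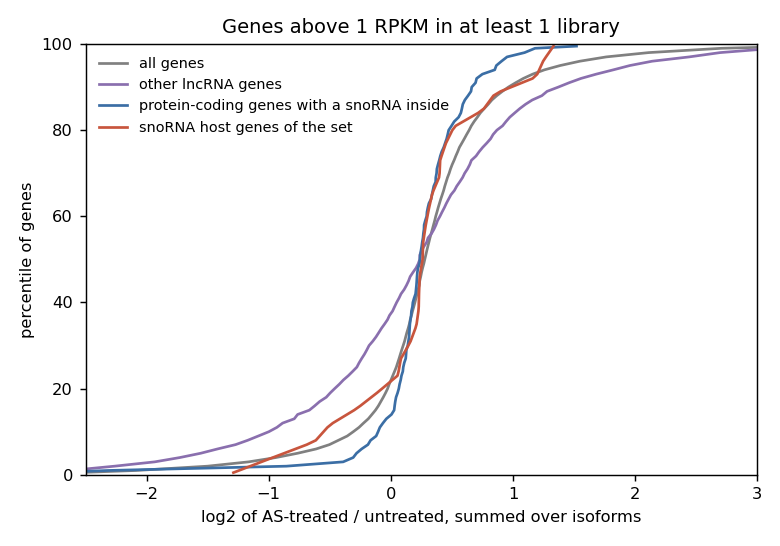
Percentile of genes (vertical axis) against log2 of the AS-treated to untreated ratio summed over isoforms (horizontal axis), for genes above 1 in at least 1 library. The curve of the snoRNA host genes crosses the middle of the axis close to that of all genes, and the curve of other long non-coding genes is the widest.

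SNHG15 and SNHG17 were the host genes with the clearest increase. SNHG15 (chromosome 7 from 44983019 to 44986961, minus strand), host of SNORA9, went from 61.8 to 157 as a sum over 14 isoforms, a ratio of 2.54. Its most abundant isoform with recovered reads, ENST00000668580.1, had 92 reads in untreated and 198 in AS-treated cells, and the ratio of 2.54 had a 95% interval from 1.97 to 3.28 (exact Clopper-Pearson, counting error only, as for every interval below). All 14 isoforms were called higher. SNHG17 (chromosome 20 from 38419638 to 38435409, minus strand), host of SNORA71 genes, went from 270 to 614, a ratio of 2.28, and 63 of its 89 isoforms were called. Its leading isoform, ENST00000666549.1, had 25 and 53 reads, a ratio of 2.50 with an interval from 1.53 to 4.19.

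SNHG21 was the last called higher, with a sum of 2.75 in untreated and 6.54 in AS-treated cells (2.38), but its leading isoform had 7 and 12 reads and an interval from 0.733 to 6.06. At this depth a change of SNHG21 could not be told from counting error. SNHG30, host of SNORD7, went from 4.30 to 7.75 (1.80), with 19 and 30 reads in its leading isoform. SNHG11, host of SNORA60, went from 53.4 to 89.9 (1.68), and its leading isoform had 17 and 23 reads. The intervals for these leading isoforms ran from 1.01 to 3.50 in SNHG30 and from 0.815 to 3.18 in SNHG11. Both held the median ratio of all transcripts. Relative to the median of all transcripts, log2 ratios were 1.09 for SNHG15, 1.00 for SNHG21, 0.94 for SNHG17, 0.60 for SNHG30 and 0.50 for SNHG11, so that SNHG21 and SNHG17 no longer passed the call on that scale.

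Several abundant host genes moved little as sums. SNHG29 went from 1553 to 1859 (1.20), SNHG16 from 520 to 624 (1.20), GAS5 from 471 to 545 (1.16) and SNHG5 from 759 to 789 (1.04). The GAS5 ratio depended on how isoforms were combined, with 1.61 for the leading isoform and 0.937 when recovered reads were summed. The interval for the leading isoform of SNHG16 was narrow, from 1.12 to 1.30 on 1370 and 1404 reads, and it held the median ratio of all transcripts. SNHG1 went from 796 to 1048 (1.32), and ZFAS1 from 97.6 to 133 (1.37). Their leading isoforms had intervals from 1.29 to 1.74 (318 and 403 reads) and from 1.24 to 1.90 (156 and 203 reads). Both lay above the median ratio of all transcripts. SNHG14, the long imprinted host gene of the SNORD115 and SNORD116 clusters on chromosome 15 and antisense to UBE3A, had 172 and 192 over 142 isoforms (1.12). EPB41L4A-AS1, host of SNORA13, went from 9.01 to 12.9 (1.43) and SNHG7, host of SNORA17 genes, from 19.9 to 26.4 (1.32). The interval for the leading isoform of SNHG7, from 1.22 to 2.31, also lay above the median ratio, whereas those of SNHG5, SNHG14 and EPB41L4A-AS1 held it. For the most abundant isoform with recovered reads, the interval lay above it in GAS5 (1.51 to 2.23) and held it in SNHG29 (1.05 to 1.27).

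A further group of genes above 5 had ratios between 1.06 and 1.27. They were SNHG8 (69.3 and 73.3), SNHG20 (49.5 and 62.7), SNHG6 (31.8 and 37.3), SNHG10 (18.7 and 23.1), SNHG4 (16.1 and 19.6) and SNHG22 (9.52 and 11.1). SNHG8 hosts SNORA24, SNHG20 hosts SCARNA16, SNHG6 hosts SNORD87, and SNHG10 hosts SCARNA13, the last of which guides modification of spliceosomal RNA in Cajal bodies. The 4 genes with a start-site pyrimidine run shown above lay on both sides of the median ratio, with SNHG5 at 1.04, ZFAS1 at 1.37, SNHG12 at 0.930 and SNHG4 at 1.22. The leading isoform of SNHG4 went the other way, with 159 and 116 reads, a ratio of 0.860 and an interval from 0.671 to 1.10.

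SNHG3 and SNHG12, which lie near each other on opposite strands of chromosome 1, were the only genes above 5 with a ratio under 1. SNHG3 (from 28505980 to 28510892, plus strand) went from 42.0 to 29.7 (0.706), and its leading isoform had 872 and 604 reads, a ratio of 0.816 with an interval from 0.734 to 0.906. SNHG12 (from 28578538 to 28583132, minus strand) went from 42.1 to 39.1 (0.930) as a sum, whereas its leading isoform, which is typed retained_intron, had 74 and 36 reads, a ratio of 0.573 with an interval from 0.374 to 0.865. Neither gene passed the call, and both intervals lay below the median ratio of all transcripts. SNHG28, named after its values were seen, was the only gene called lower (0.396), with no isoform above 1 and with 5 and 1 reads in its leading isoform.

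**Figure D3:**
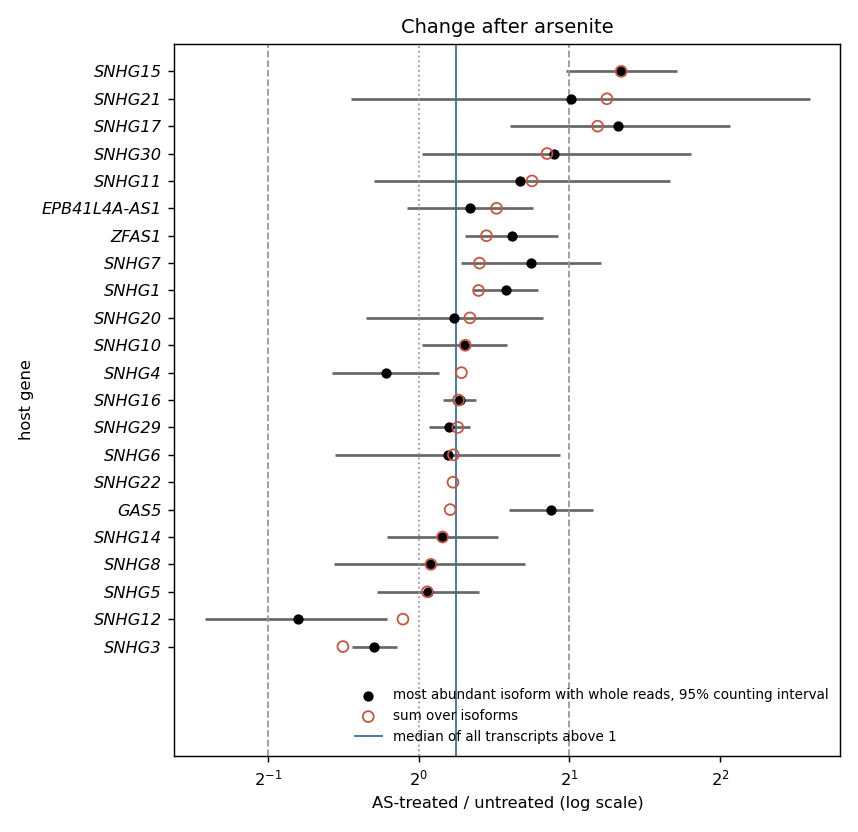
AS-treated to untreated ratio of the 22 host genes above 5 (log2-spaced axis), with open circles for the sum over isoforms and black points for the most abundant isoform with whole reads, bars being its 95% counting interval. Isoforms under 10 reads in both libraries together are not drawn, the blue line is the median of all transcripts, dashed lines are the call limits, and the abundant isoform lies right of the sum in GAS5 (1.83 and 1.16) and left of it in SNHG12 (0.573 and 0.930).

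Isoforms were also counted singly, and in some genes they did not move together. Of 549 host gene transcripts above 1, 107 were called higher (19.5%), with 6.84% of all transcripts called, and 2 were called lower (0.364%), with 2.01% of all transcripts called. Of those 107, 77 belonged to SNHG17 and SNHG15, whose isoforms share reads, and without both genes 30 of 446 were called higher (6.73%), close to the background. The 61 host gene transcripts that GENCODE types as retained_intron had a median ratio of 1.07, and the other 488 had 1.23. The 2 groups come from different genes, since 20 of the 61 belong to GAS5, 13 to SNHG1, 8 to SNHG12 and 3 to SNHG17. Without SNHG15 and SNHG17 the 446 transcripts of all types had a median of 1.15, so these medians do not isolate the type from the gene. Over the whole table the medians were 1.15 for retained_intron transcripts, 1.24 for transcripts typed nonsense_mediated_decay and 1.22 for protein-coding transcripts.

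In most host genes the ratios also differed with the intronic share of an isoform. For the 453 of 549 isoforms with whole reads in both libraries (13 of 31 in GAS5), the share of bases that are intronic in most spliced isoforms of the gene was computed, and isoforms with under 20% were called exonic and those with 50% or more intron-rich. This contrast was chosen after the values were seen, and it does not depend on how the libraries are scaled, because both kinds of isoform come from the same pair of libraries. The exonic isoforms had the higher median ratio in 13 of the 16 host genes that had both kinds, with 65.2% of all 4348 such genes on that side. The median of exonic over intron-rich ratio was 1.26 in the host genes and 1.09 in all genes. In 5 of the 16 host genes the ratios of the 2 kinds did not overlap, exonic above (GAS5, SNHG1, SNHG6, SNHG16 and SNHG17), a state found in 29.8% of all genes with both kinds. In 2 of the 16 they did not overlap the other way (SNHG3 and SNHG10), as in 14.3% of all such genes. Both counts lay close to the background. SNHG3, SNHG6 and SNHG10 had 1 isoform of each kind, which cannot overlap. The intron-rich isoforms of SNHG3 and SNHG10 also have a snoRNA or scaRNA within an exon, whose reads are set aside below. With every matched isoform, SNHG17 overlapped, SNHG15 did not, and SNHG6 was not compared.

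GAS5 showed the pattern at high counts. The 13-exon isoform ENST00000430245.5, which has no intronic base, had 15.8 in untreated and 25.4 in AS-treated cells (152 and 207 reads), and the 12-exon isoform ENST00000454068.5 had 19.2 and 35.3 (176 and 274 reads). The retained_intron isoform ENST00000443799.5 had 16.2 and 7.21 (193 and 73 reads), a ratio of 0.446 with an interval from 0.336 to 0.586. The retained_intron isoform ENST00000421068.5, with 78.8% of its bases intronic, had 15.5 and 8.03 (218 and 96 reads). The 2-exon retained_intron isoform, ENST00000650796.1, had 20.3 and 16.0 (850 and 569 reads). Over 4 exonic isoforms the ratios ran from 1.54 to 1.83, over 8 intron-rich isoforms from 0.446 to 1.21, and the gene sum of 1.16 lay between them. The type alone did not separate the isoforms, since of 20 retained_intron isoforms of GAS5 above 1 in value, 8 had a ratio above 1. Those with a smaller intronic share included ENST00000436285.5 (25.7% intronic), which had 22.5 and 34.2, and ENST00000436656.5 (27.5% intronic), which had 24.0 and 34.7. Over every matched GAS5 isoform, 8 exonic isoforms had 1.21 to 1.83 and 11 intron-rich isoforms 0.446 to 1.21, so the ranges all but met.

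**Figure D4:**
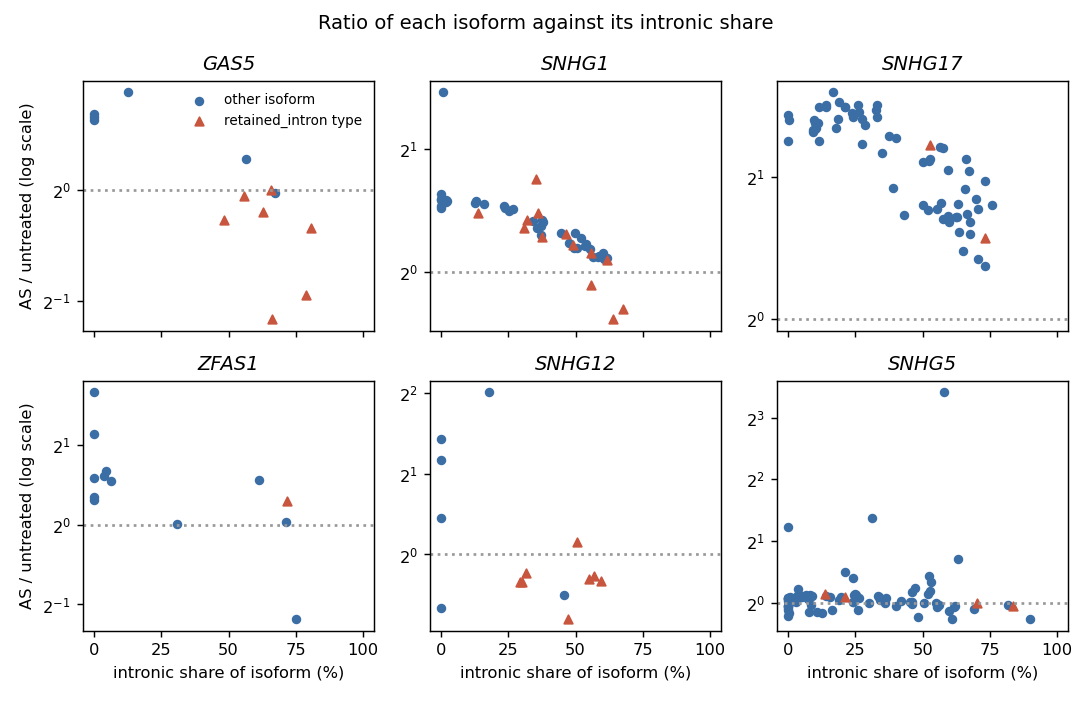
AS-treated to untreated ratio of each isoform above 1 with whole reads (log2-spaced vertical axes, which differ between panels) against the percent of its length that is intronic in most spliced isoforms of the gene, for 6 host genes, with triangles for isoforms typed retained_intron. In GAS5, SNHG1 and SNHG17 the ratio declines as the intronic share grows, and in SNHG5 most isoforms lie near a ratio of 1 at every share.

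In SNHG12 the 5 exonic isoforms had a median ratio of 2.24, with median values of 1.29 in untreated and 1.82 in AS-treated cells, and the 4 intron-rich isoforms had 0.823, with 3.79 and 3.33. The exonic values were low and their ratios ran from 0.634 to 4.01, so the 2 kinds overlapped. In ZFAS1 the medians were 1.52 over 8 exonic isoforms and 1.13 over 4 intron-rich isoforms, and the 2-exon isoform ENST00000623640.1 fell from 5.24 to 2.30 (51 and 19 reads). In SNHG1 the 13 exonic isoforms had 1.40 to 2.75 and the 16 intron-rich isoforms 0.764 to 1.21. In SNHG16 the 5 exonic isoforms had 1.18 to 1.21, and the 2 intron-rich isoforms had 0.825 and 1.13.

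SNHG17 and SNHG15 rose in both kinds of isoform. In SNHG17 the 18 exonic isoforms had a median ratio of 2.62 (2.39 to 3.03) and the 32 intron-rich isoforms 1.73 (1.30 to 2.34). In SNHG15 the medians were 2.81 over 4 exonic and 2.19 over 3 intron-rich isoforms. SNHG11 had 1.81 over 14 exonic and 1.33 over 6 intron-rich isoforms. In these 3 genes, as in SNHG20 and SNHG10 below, even the intron-rich isoforms had medians above the median of all transcripts.

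In the other genes the medians were as follows. SNHG29 had 1.25 and 1.05, SNHG14 1.12 and 0.974, SNHG4 1.28 and 1.12, SNHG5 1.05 and 0.981, and SNHG6, with 1 isoform of each kind, 1.14 and 0.757, always with the exonic value given before the intron-rich value. SNHG20 had 1.26 and 1.30, SNHG10 1.09 and 1.23, and SNHG3 0.543 and 0.816, so these 3 went the other way. The intron-rich isoforms of SNHG10 and SNHG3 have a scaRNA and a snoRNA within an exon. Without the reads of those RNAs their ratios were 1.37 (interval from 0.773 to 2.43) and 0.587 (0.506 to 0.679). Each interval held the exonic ratio of its gene, so these 2 exceptions could not be told from counting error.

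**Figure D5:**
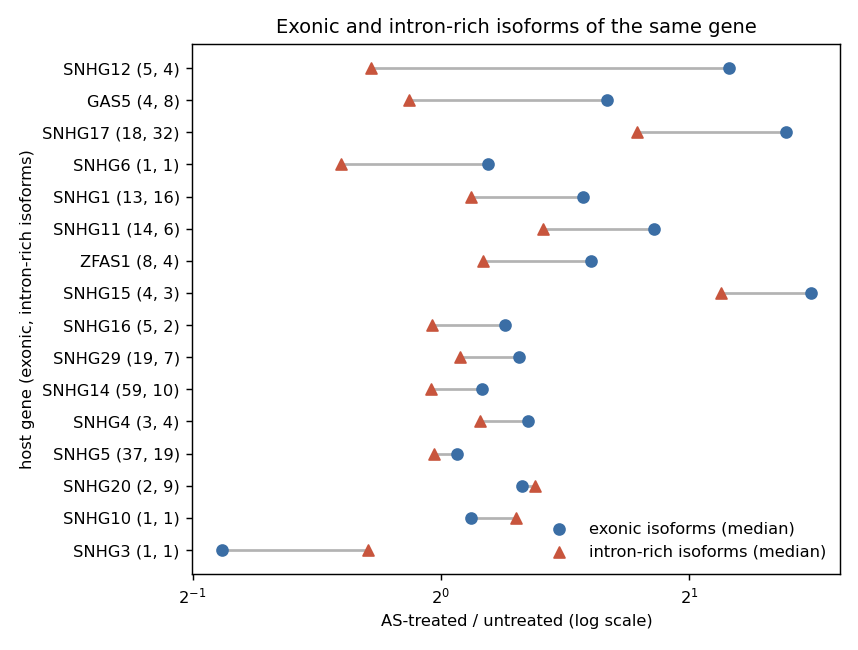
Median AS-treated to untreated ratio (log2-spaced axis) of exonic isoforms (blue circles) and intron-rich isoforms (red triangles) of each of the 16 host genes that have both, with the number of isoforms of each kind in brackets. The circle lies right of the triangle in 13 genes, and SNHG12 and GAS5 have the widest gaps.

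The snoRNAs themselves were mostly beyond reach of these libraries. GENCODE places 144 snoRNA and small Cajal body RNA (scaRNA) transcripts inside 30 of the host genes, and 133 of them were listed at 0 in both libraries. All 117 shorter than 130 nt were at 0, as were all 593 such snoRNA and scaRNA transcripts in the table and all but 2 of 6454 transcripts of any type below that length. Box C/D snoRNAs, the class that guides 2′-O-methylation, fall largely under that length, so their 0 values carry no information on their expression. The 7 RNAs above 1 in at least 1 library were longer, and most were box H/ACA RNAs, the class that guides pseudouridylation.

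SNORA73A and SNORA73B, the 2 copies of U17 inside SNHG3, had the highest values of all RNAs inside the host genes. U17 is an unusual box H/ACA RNA that acts in the cleavage of the ribosomal RNA precursor. Their GENCODE sequences (GRCh38, plus strand, in DNA letters) are shown because they are near copies, and the capitals mark the ACA box 3 bases from the 3′ end.
SNORA73A, chr1:28507366-28507571: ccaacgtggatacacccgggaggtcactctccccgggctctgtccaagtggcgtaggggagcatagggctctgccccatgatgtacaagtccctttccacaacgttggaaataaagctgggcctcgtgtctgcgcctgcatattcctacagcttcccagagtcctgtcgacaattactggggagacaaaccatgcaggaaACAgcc
SNORA73B, chr1:28508559-28508762: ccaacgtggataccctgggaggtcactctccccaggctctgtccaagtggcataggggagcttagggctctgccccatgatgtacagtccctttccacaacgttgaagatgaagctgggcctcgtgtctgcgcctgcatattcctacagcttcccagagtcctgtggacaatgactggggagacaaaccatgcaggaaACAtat
They are 206 and 204 bases long and share 192 of 204 aligned bases (94.1%), so reads may be exchanged between them, and how the counting treated such reads is not given in the sources used here. SNORA73A had 116 in untreated and 141 in AS-treated cells (318 and 328 reads), a ratio of 1.22 with an interval from 1.04 to 1.42. SNORA73B had 83.0 and 85.2 (225 and 196 reads), a ratio of 1.03 with an interval from 0.843 to 1.25. Both intervals held the median ratio of all transcripts.

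SNORA73A lies within an exon of ENST00000437681.1, the retained_intron isoform of SNHG3. Its reads were taken as part of the 872 and 604 reads of that isoform, which was not tested. Without them 554 and 276 reads were left, a ratio of 0.587 with an interval from 0.506 to 0.679, next to 0.543 (495 and 228 reads, interval from 0.462 to 0.636) for the spliced isoform ENST00000413987.1. Both isoforms of the host RNA were thus lower in the AS-treated library, beside the ratios of 1.22 and 1.03 for the snoRNAs inside the gene. In SNHG10 the scaRNA SCARNA13 had 50.1 and 60.9 (183 and 189 reads). Taken in the same way, these made up most of the 208 and 218 reads of the intron-rich isoform ENST00000654925.1. Without them 25 and 29 reads were left, a ratio of 1.37 with an interval from 0.773 to 2.43. SCARNA16 inside SNHG20 had 3.62 and 3.32 on 9 and 7 reads, and SNORA74A inside SNHG4 had 1.52 and 0.895 on 4 and 2 reads, too few to compare.

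The genes of the pathways that act on host RNA were not called. All 17 factors of nonsense-mediated decay and the exon junction complex were above 1, and 0 were called in either direction, with a median ratio of 1.21. RBM8A, a core component of the exon junction complex, had 153 and 187. The ratios ran from 0.787 for the endonuclease gene SMG6 (61.6 and 48.5) to 1.61 for EIF4A3 (49.6 and 80.0), the helicase that anchors the exon junction complex. UPF1, the central helicase of the pathway, had 57.6 and 56.6.

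Of 16 core and assembly factors of snoRNA particles, 15 were above 1, 0 were called, and their median ratio was 1.25. NOP56, a scaffold of box C/D particles, went from 301 to 492, the helicase gene RUVBL2 from 258 to 283, and FBL, which encodes the methyltransferase fibrillarin, from 72.5 to 101. NUFIP1, an assembly factor, had the highest ratio at 1.80 (3.05 and 5.48), and RUVBL1 the lowest at 1.09 (92.2 and 101). ZNHIT3 was listed at 0 in both libraries. RNA levels of these factors say nothing of their activity, and in a bulk culture a change per cell and a change in the share of cells cannot be told apart.

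The values of some host genes could include RNA of overlapping genes. Of the 22 genes above 5, 6 share exonic bases with another gene on the same strand, including SNHG3 with RCC1, SNHG14 with SNRPN, SNHG20 with SEC14L1 and SNHG4 with MATR3, and 15 share exonic bases with a gene on the opposite strand. Whether the libraries kept the strand is not given in the sources used here, and the part of such reads in the values was not tested.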

How the data were processed

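Ribosomal RNA-depleted libraries of untreated and AS-treated SH-SY5Y cells, 1 per condition, were analysed. Reads had been trimmed with fastp, aligned with HISAT2 (version 2.1.0) to GRCh38 and quantified by the authors with StringTie on GENCODE release 41. The deposited values are headed TPM, but sum to 1039676 and 1216752 and behave as RPKM per transcript. With GENCODE release 44, 91.1% of transcripts were matched by ID, and values times length were whole reads (tolerance 0.05) for at least 99.999% of 141239 and 143944 values checked. Genes were sums over isoforms. Calls used a fold of 2 and a minimum of 1, and no test was run. Genes above 5 were named, and 1 gene of the pathway lists is not reported here. Intervals of read ratios are 95% exact binomial. Mates or pairs cannot be told apart in the read unit. The call and the recovery of reads were tested on simulated data. Members, gene lists and contrasts were chosen with earlier results of these data known. Files of other assays were not used here. Computation used Python 3.11.15, numpy 2.4.6, pandas 2.3.3 and scipy 1.17.1.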

Additional observations from a re-analysis of the deposited data

How the results depend on the processing

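With the median ratio set to 1, 1 host gene was called higher and 2 lower, 66 transcripts higher and 8 lower, and the median log2 ratios were 0.0091 for host genes, -0.15 for retained_intron transcripts and 0.038 for other transcripts. With the sum of nuclear protein-coding transcripts made equal, 2 genes were lower, 66 transcripts higher and 8 lower, and the medians were 0.021, -0.14 and 0.051, so the sign for retained_intron transcripts depends on the scaling. With 1 added to both values, 0 genes were lower, 58 transcripts higher and 1 lower. A minimum of 0.1 gave 24 lower transcripts, a minimum of 5 gave 0 lower genes, and the leading isoform alone gave 0 lower genes. A fold of 1.5 called 5 genes higher and 3 lower, 186 transcripts higher and 13 lower. A fold of 4 called 0 genes in either direction, 3 transcripts higher and 0 lower. The other counts stayed within 1.5 times. The exonic over intron-rich median was 1.35 (all genes 1.09) with limits of 10% and 50%, and 1.45 (all genes 1.17) with 20% and 70%. Exonic isoforms had the higher ratio in 80.0% to 90.9% of host genes and in 64.9% to 71.3% of all genes, the upper values of both with 20% and 70%. Of 154 recomputed ratios of named genes, 139 stayed on their side of 1. SNHG5, GAS5, SNHG14, SNHG8, SNHG6 and SNHG22 fell below 1 under both rescalings. SNHG12 rose above 1 without retained_intron transcripts, SNHG4 fell below it with the leading isoform alone, and GAS5 with recovered reads. In a separate tally, 15 of the 154 moved beyond the counting interval, and 0 called genes changed direction. That interval is wide for some genes, as SNHG22 at 4.12 with recovered reads stayed inside an interval from 2 and 3 reads. The 154 include 22 ratios with 1 added and 22 with 0.1 added to both values, which cannot cross 1. No paired analysis was possible because each condition held 1 library, and no library could be left out. Depth limits the low genes, as the 7 and 12 reads of SNHG21 show.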
